A study of Homo sapiens with 4 samples.

Results

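The respiratory chain and the mitochondrial ribosome were examined through 112 ATAC-seq peaks of 103 gene symbols, out of 60875 peaks in the authors' deposited table. Members were the peaks whose gene symbol begins as NDUF, UQCR, SDHA to SDHD, COX4 to COX8, ATP5, MRPL or MRPS followed by a digit. The rule read the symbol and no measured value, and the 7 peaks whose symbol carries a hyphen (antisense and readthrough transcripts) were left out. The symbols stand for 100 protein-coding genes and 3 pseudogenes (SDHAP1, SDHAP3 and MRPL45P2). The peaks fall into 7 groups: 26 peaks for complex I, 6 for complex II, 4 for complex III, 10 for complex IV, 10 for complex V, 38 for the large and 18 for the small subunit of the mitochondrial ribosome. NDUFA4 and NDUFA4L2 were counted with complex IV, where the RefSeq symbols COXFA4 and COXFA4L2 place them.

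The cells were cardiac progenitors at day 6 of differentiation from WTC11, a human induced pluripotent stem cell line of wild-type genotype, which all groups share. Libraries labelled high (n = 2) came from progenitors of batches that ended with many cardiomyocytes among their cells, and libraries labelled low (n = 2) from batches that ended with few. ATAC-seq maps open chromatin by the sites where the Tn5 transposase inserts sequencing adapters; each library used 50000 to 100000 cells and paired reads of 42 bp. In a bulk assay of this kind, fewer cells with an open site and less access per cell cannot be told apart.

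The respiratory chain sits in the inner mitochondrial membrane. Complexes I and II pass electrons from NADH and succinate to ubiquinone, complex III hands them to cytochrome c, complex IV reduces oxygen, and complex V, the ATP synthase, uses the proton gradient built by complexes I, III and IV. Most subunits are encoded in the nucleus, while a small core set is encoded in mitochondrial DNA and translated by the mitochondrial ribosome, whose proteins are all nuclear-encoded. Beating heart muscle depends on this system more than most tissues, and immature cardiac cells lean more on glycolysis. The member genes are housekeeping genes with CpG-rich promoters, and NRF1, the ETS factor GABP, YY1, SP1 and CREB are the regulators most often named for them.

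The promoters that carry the most accessible start peaks show how these regulators' letters are placed. The windows cover the 250 bases before the RefSeq start of the gene with the highest mean count in its group among peaks holding their own gene's start, in build GRCh38.p14, written 5′ to 3′ on the gene's strand. Capitals mark the motifs searched on both strands: GCGCATGCG for NRF1, CCGGAAG for ETS factors, AAGATGGCG for YY1, CCCCGCCC for SP/KLF factors, TGACGTCA for the cyclic AMP response element (CRE) and CCAAT for the CCAAT box.
NDUFB4, accessory subunit of complex I, chr3:120596086-120596335, plus strand: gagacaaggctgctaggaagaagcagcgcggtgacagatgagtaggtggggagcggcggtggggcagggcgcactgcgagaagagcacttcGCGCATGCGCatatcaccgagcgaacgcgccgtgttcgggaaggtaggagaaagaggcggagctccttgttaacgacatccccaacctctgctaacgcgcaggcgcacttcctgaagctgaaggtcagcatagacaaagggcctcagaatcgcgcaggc
SDHB, iron-sulfur subunit of complex II, chr1:17054033-17054282, minus strand: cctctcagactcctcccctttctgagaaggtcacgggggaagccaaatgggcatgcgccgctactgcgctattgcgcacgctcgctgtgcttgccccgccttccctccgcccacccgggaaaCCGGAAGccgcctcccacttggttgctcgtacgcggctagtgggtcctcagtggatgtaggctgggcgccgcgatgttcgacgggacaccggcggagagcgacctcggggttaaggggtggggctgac
COX5A, subunit of complex IV, chr15:74938074-74938323, minus strand: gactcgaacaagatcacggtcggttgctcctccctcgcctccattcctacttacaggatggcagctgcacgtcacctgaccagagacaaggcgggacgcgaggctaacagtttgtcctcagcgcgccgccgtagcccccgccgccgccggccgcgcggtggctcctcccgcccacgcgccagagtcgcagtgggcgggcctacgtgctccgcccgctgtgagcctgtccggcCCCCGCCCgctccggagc
ATP5MC1, subunit of the c-ring of ATP synthase, chr17:48892537-48892786, plus strand: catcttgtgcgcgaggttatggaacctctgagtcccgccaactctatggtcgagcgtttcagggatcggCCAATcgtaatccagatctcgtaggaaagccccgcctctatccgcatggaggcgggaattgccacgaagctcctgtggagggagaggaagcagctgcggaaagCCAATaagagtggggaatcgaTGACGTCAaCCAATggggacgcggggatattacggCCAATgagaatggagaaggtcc
MRPS27, small ribosomal subunit, chr5:72320241-72320490, minus strand: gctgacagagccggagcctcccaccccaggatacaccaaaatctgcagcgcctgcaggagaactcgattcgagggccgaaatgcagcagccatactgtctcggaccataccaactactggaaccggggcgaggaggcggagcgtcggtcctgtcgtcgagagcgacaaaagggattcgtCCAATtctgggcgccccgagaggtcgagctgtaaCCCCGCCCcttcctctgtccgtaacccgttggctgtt

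NDUFB4 held overlapping NRF1 matches on both strands, from 159 to 150 bases before the start. SDHB held an ETS match from 128 to 122 bases before it, and COX5A an SP/KLF match from 18 to 11 bases before it. ATP5MC1 held a CRE match from 57 to 50 bases before the start, amid 4 CCAAT boxes that begin 181, 78, 48 and 22 bases before it. MRPS27 held an SP/KLF match beginning 37 bases and a CCAAT box beginning 71 bases before the start. The windows of UQCRC1 (complex III) and MRPL24 (large ribosomal subunit), chosen the same way, held none of the motifs before the start. The longer windows read for the shares below run past the start. There UQCRC1 also held a YY1 match, and SDHB a YY1 and a CRE match, while MRPL24 again held none. A match is a string of letters and not a measured binding site.

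The authors' deposited table gives 1 mean count per peak over the 4 libraries and 1 comparison of the groups, so no value per library can be printed and the depth of each library is unknown. Its log2 fold changes carry a sign, but the labels and headers do not say which group is on top of the ratio: peaks marked Up have negative values and peaks marked Down positive ones. Changes are therefore called positive or negative as deposited and are assigned to neither group. Each count, log2 fold change ± standard error and p of a peak given here is the authors' value from their deposited table, and 95% intervals were computed from that error. In the same table, the markers of cardiomyocytes (10 peaks of 8 genes) had 4 peaks past an adjusted p of 0.05, all negative: MYH7, MYL7, TTN and NKX2-5. Endothelial markers (7 peaks of 6 genes) had 2, TEK and NOS3, both positive. The fibroblast and smooth muscle markers (8 peaks of 7 genes) had 1, THY1, also positive, and the definitive endoderm markers (8 peaks of 6 genes) had 1, APOA1, negative. No list was uniform in sign. Of the cardiomyocyte peaks 1 was positive, MYL4 at 1.15 ± 0.47 (adjusted p = 0.1392 by DESeq2), as was 1 endoderm peak. Negative values were found at 2 endothelial peaks and at 1 fibroblast and smooth muscle peak. The part of these cell types in the values of the respiratory genes was not tested. The replicates are called biological with no further detail, so a p-value here reflects scatter among these libraries, which may be technical.

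None of the 112 member peaks passed the test between high and low libraries. By the authors' DESeq2 Wald test with Benjamini-Hochberg adjustment over all peaks, 0 members passed an adjusted p of 0.05 on the positive side and 0 on the negative side, and 4 had an unadjusted p under 0.05. Across all peaks 6.0% were called (3.64% positive and 2.36% negative), but the closer background is lower. Of the peaks that carry any gene symbol 2.11% were called, and of those that also hold a RefSeq start 0.661% (0.570% at or above the median count of all peaks). The members' count is near these last shares, so it is not a result particular to them. The authors' own marking, which asks for an unadjusted p under 0.05 and a change of 1 log2 unit or more, took in 9.84% of all peaks and 0 members. The unadjusted count, 3.57% of members, stood beside 7.20% of symbol-bearing peaks and 16.4% of all peaks. The peaks of cytosolic ribosomal protein genes, which serve translation outside mitochondria, gave 0 calls among 71, with 2 at an unadjusted p under 0.05. The smallest adjusted p among the members was 0.1818 (MRPL38).

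The members were also close to 0 in size. Their median log2 fold change was 0.07, the middle of the distribution ran from -0.09 to 0.20 (lower and upper quartile), and the whole range from -0.93 (MRPL38) to 0.56 (NDUFB8). In all, 70 of 112 members were positive (62.5%), against 57.3% of symbol-bearing peaks holding a start and 50.1% of all peaks. The median absolute change was 0.16 in members, 0.16 in symbol-bearing peaks holding a start and 0.31 in all peaks. The 95% interval lay inside ±1 log2 unit, a 2.0-fold change, for 97 members (86.6%), against 85.5% of symbol-bearing peaks holding a start and 39.1% of all peaks. It lay inside ±0.5 for 8 members, so for most members the interval reached beyond 0.5 log2 units. At the members' own standard errors, the change needed for a call was under 1 log2 unit for 94 of them.

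**Figure D1:**
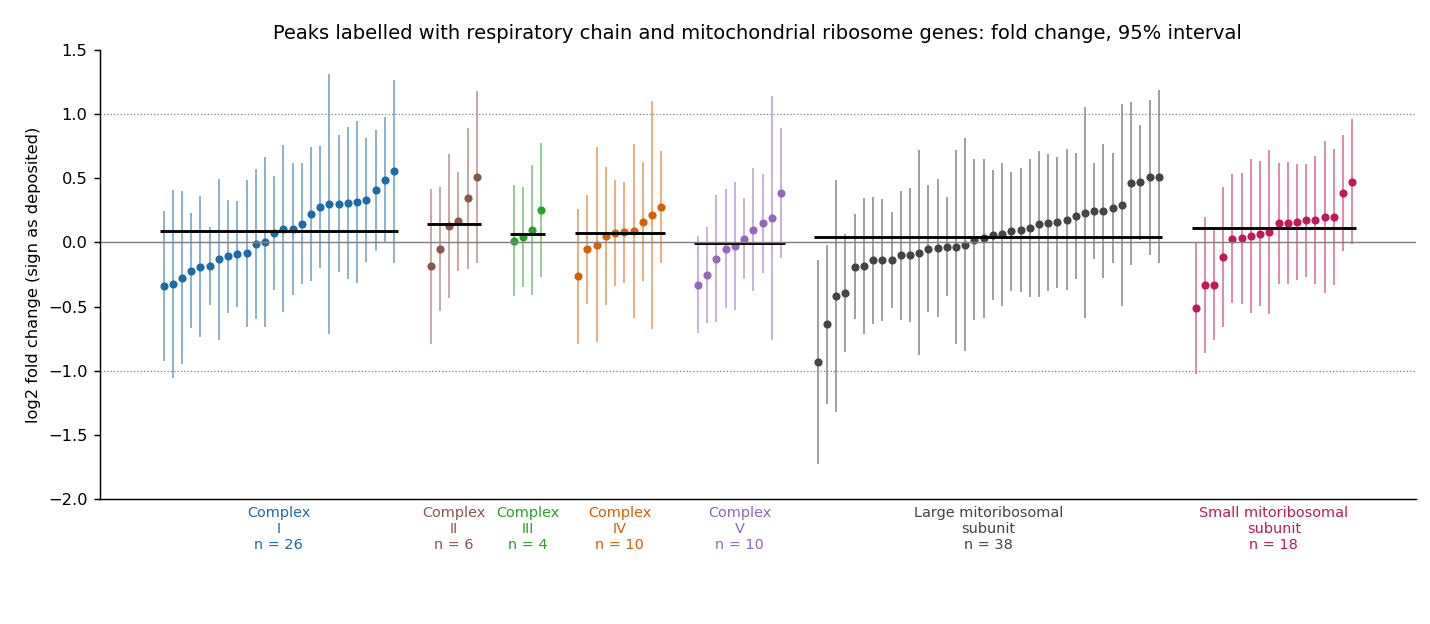
Log2 fold change of each member peak, sign as deposited (vertical axis), by group along the horizontal axis and in order of value within a group; bars are 95% intervals from the authors' standard errors. The points run from -0.93 to 0.56, and no member passed an adjusted p of 0.05.

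The depth behind these values was above that of most of the table. The members' median of the mean counts was 130.5, against 47.75 over all peaks, and 103 of the 112 lay at or above that overall median. A peak needed an absolute Wald score (the change in units of its standard error) of 2.968 to be called. At the members' own standard errors that meant a log2 change of 0.78 at the median, a 1.72-fold difference, with 0.457 the smallest and 1.531 the largest. Over all peaks the median need was 1.171, a 2.25-fold difference. The largest absolute Wald score of a member was 2.306, and the standard deviation of the score was 0.89 in members, 0.97 in symbol-bearing peaks holding a start and 1.505 in all peaks.

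**Figure D2:**
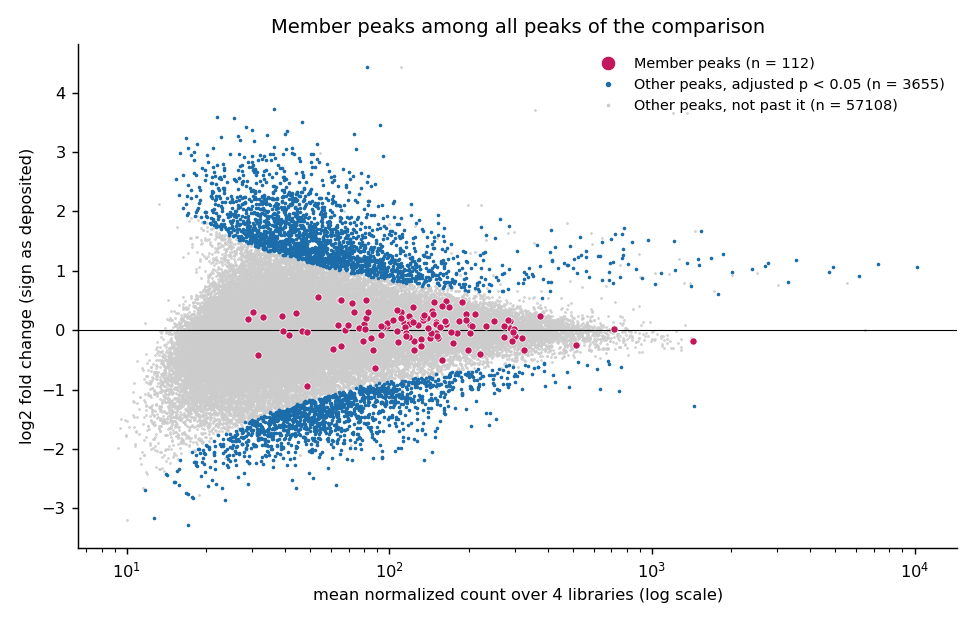
Mean normalized count over the 4 libraries (horizontal, log scale) against log2 fold change, sign as deposited (vertical), for member peaks, other called peaks and all remaining peaks. Member peaks lie to the right, with counts from 28.8 to 1429.9, and in a narrow band around 0.

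**Figure D3:**
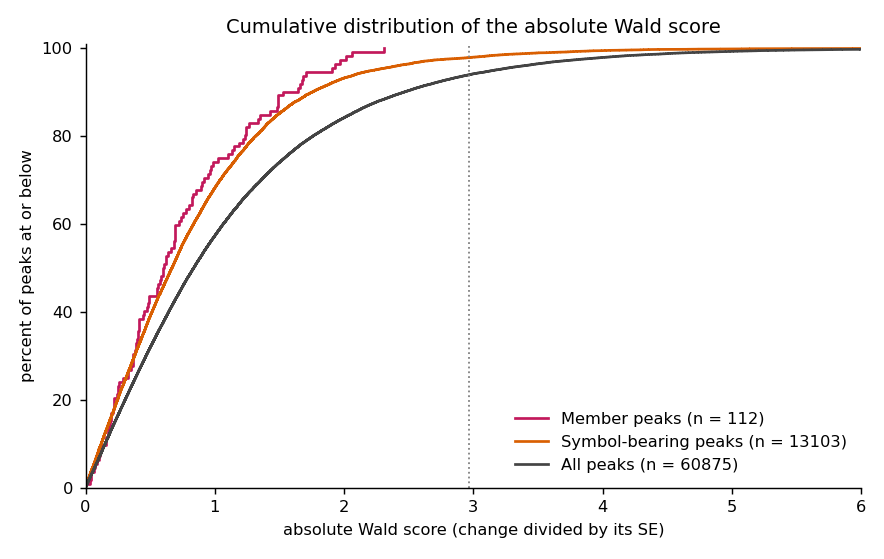
Cumulative percent of peaks (vertical) at or below each absolute Wald score (horizontal) for the member peaks and the sets they are compared with; the dotted line marks 2.968, the smallest score of a called peak. The members end at 2.306, left of that line.

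The median log2 fold change was 0.09 in complex I, 0.15 in complex II, 0.07 in complex III, 0.08 in complex IV and -0.0012 in complex V. It was 0.04 in the large and 0.12 in the small ribosomal subunit. With fold changes recentred on the running median of peaks of like count, the large subunit's median turned to -0.01, while the sign of the other groups' medians held. The respiratory complexes together (56 peaks) had a median of 0.08 with 35 positive, and the mitochondrial ribosome (56 peaks) a median of 0.07 with 35 positive. Complex II has few subunit peaks: without its assembly factors and pseudogenes the median was 0.34, on the 2 peaks of SDHB and SDHC. No test of a difference between groups was run. Accessibility per kilobase of peak ran in the order complex V, complex III, complex IV, small subunit, complex I, large subunit and complex II, with medians of 306.1, 299.7, 234.9, 234.1, 189, 171 and 169 counts per kilobase. Members within a group spread far wider than this, in complex V alone over 72.55 to 917.2 counts per kilobase.

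Complex I, the NADH dehydrogenase and the entry point for most electrons, had 15 of 26 peaks positive and 23 with the interval inside ±1. NDUFS5, an accessory subunit on the intermembrane side, was the 1 complex I peak with an unadjusted p under 0.05: it averaged 165 counts (chr1:39025834-39027016) with a log2 fold change of 0.49 ± 0.25 (SE, 95% interval 0.0024 to 0.98, adjusted p = 0.3005 by DESeq2) in the authors' deposited table. NDUFB8, an accessory subunit of the membrane arm, had the highest value, 0.56 ± 0.36, on only 53.6 counts (chr10:100529345-100530061, adjusted p = 0.5005 by DESeq2). NDUFB9, another membrane arm subunit, was lowest at -0.34 ± 0.30. NDUFA11, a membrane arm subunit that contacts complex III in supercomplexes, carried the highest count of all members, 1429.9 (chr19:5903845-5905051), and a tight estimate of -0.18 ± 0.15 (95% interval -0.49 to 0.12, adjusted p = 0.6625 by DESeq2). That peak lies 55 bp outside NDUFA11 and holds the start of VMAC. NDUFS7, which carries the last iron-sulfur cluster before ubiquinone, is named outside the rule for named genes after its values were seen, as the only core subunit with a labelled peak; it had 0.41 ± 0.24 (adjusted p = 0.4277 by DESeq2).

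Complex II, succinate dehydrogenase, links the chain to the tricarboxylic acid cycle. SDHB, its iron-sulfur subunit, averaged 284 counts (chr1:17053835-17054443) with 0.16 ± 0.20 (95% interval -0.22 to 0.55). SDHC, a membrane anchor, was the highest of the group at 0.51 ± 0.34 on 65.1 counts (chr1:161314172-161314581, adjusted p = 0.522 by DESeq2). SDHAF4, which assists assembly of the flavoprotein SDHA, was the lowest at -0.19 ± 0.31 (chr6:70566692-70567290). No peak carries the symbols SDHA or SDHD. The start of SDHA, the flavoprotein, lies in a peak labelled CCDC127 with -0.12 ± 0.29, and that of SDHD, the other anchor, in one labelled TIMM8B with 0.10 ± 0.28. The pseudogenes SDHAP1 (0.35 ± 0.28) and SDHAP3 (-0.05 ± 0.25) resemble SDHA closely, and since the sources do not say how reads that map to several places were handled, their values are uncertain.

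Complex III, the cytochrome bc1 complex, had 4 positive peaks of 4, all with the interval inside ±1. UQCRC1, a core protein, averaged 299 counts (chr3:48609253-48609968) and had 0.01 ± 0.22 (95% interval -0.42 to 0.45). UQCRFS1, the Rieske iron-sulfur protein, had 0.09 ± 0.26, and UQCR11, a small subunit, 0.04 ± 0.20. UQCRB, which binds ubiquinone, was highest at 0.25 ± 0.27 (adjusted p = 0.7663 by DESeq2).

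Complex IV, cytochrome c oxidase, had 7 of 10 peaks positive. COX5B, which stands at the matrix face, was highest at 0.28 ± 0.22 (chr2:97645411-97646231, 195 counts, adjusted p = 0.6395 by DESeq2). COX6B1, which sits at the dimer interface on the cytochrome c side, had 3 peaks on chr19 with log2 fold changes of 0.05, 0.08 and 0.16 (the first -0.01 when recentred), at 115, 274 and 162 counts; 2 of them lie in ETV2, the neighbouring gene for a haematoendothelial ETS factor. COX7B had peaks on either side of 0: the one at its own start gave 0.21 ± 0.45 on 33.1 counts (chrX:77899217-77899529), and the one 3735 bp from the gene, at the start of MAGT1, -0.26 ± 0.27 (chrX:77895222-77895733). NDUFA4, now counted as a complex IV subunit, had -0.05 ± 0.22, and NDUFA4L2, its hypoxia-induced paralogue, -0.02 ± 0.39 on 46.6 counts. The NDUFA4L2 peak lies 1959 bp from the gene and does not hold its start. Of the tissue-restricted isoforms, COX6A2 and COX7A1 of muscle and COX4I2 of lung carried no labelled peak and no peak of another label in the gene body. The widely expressed counterparts had peaks at the start under other labels, with 0.31 ± 0.34 for COX4I1 (labelled EMC8), -0.05 ± 0.21 for COX6A1 (labelled GATC) and 0.01 ± 0.24 for COX7A2 (no symbol). COX6B2 and COX7B2, also without a labelled peak, each had 1 peak of other or no label in the gene body, off the start. COX8C had none.

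Complex V had 5 peaks positive and 5 negative. ATP5MC1, whose product forms the rotating c-ring and whose promoter is printed above, averaged 714.5 counts (chr17:48892265-48893044) and had the smallest error in the set after NDUFA11, 0.03 ± 0.16 (95% interval -0.29 to 0.34). The catalytic head was split in sign: ATP5F1A, the alpha subunit, was highest at 0.38 ± 0.26 (chr18:46104081-46104906, adjusted p = 0.5244 by DESeq2), while ATP5F1B, the beta subunit, had -0.25 ± 0.19 on 513 counts (adjusted p = 0.5946 by DESeq2) and was named after its values were seen. ATP5MD, a small membrane subunit with the RefSeq symbol ATP5MK, was lowest at -0.33 ± 0.19 (chr10:103396306-103396887, unadjusted p = 0.08883 and adjusted p = 0.4204 by DESeq2). ATP5MG, which helps dimers form, had the fewest counts of any member, 28.8, and a wide error, 0.19 ± 0.49. That peak lies 151 bp outside the gene, whose start lies in a peak labelled KMT2A with a log2 fold change of 0.29.

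The large ribosomal subunit had the widest range of values and 3 of the 4 members with an unadjusted p under 0.05. MRPL38 gave the largest change, -0.93 ± 0.40 (95% interval -1.72 to -0.14, unadjusted p = 0.0211, adjusted p = 0.1818 by DESeq2), on 48.5 counts. Its peak (chr17:75910721-75911056) lies 5837 bp from the gene, inside FBF1, so it is no promoter value of MRPL38. MRPL20 had -0.64 ± 0.32 on 88.5 counts at its own start (chr1:1407106-1407552, adjusted p = 0.2813 by DESeq2). MRPL17 had 0.47 ± 0.23 on 189 counts, also at its own start (chr11:6682875-6683700, adjusted p = 0.2655 by DESeq2). The highest count of the subunit, 375, belonged to the peak labelled MRPL35 (0.24 ± 0.19), which holds the start of IMMT, an organiser of the cristae, 3673 bp from MRPL35. Of 38 peaks 21 were positive.

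The small ribosomal subunit had 14 of 18 peaks positive, with 0 at an unadjusted p under 0.05. MRPS17 was lowest at -0.51 ± 0.26 (chr7:55951645-55952220, unadjusted p = 0.05335, adjusted p = 0.3161 by DESeq2). MRPS23 was highest among the positive peaks at 0.47 ± 0.25 (chr17:57849842-57850474, unadjusted p = 0.05638, adjusted p = 0.3266 by DESeq2). MRPS27, which binds RNA and whose promoter is printed above, carried the highest count of the subunit, 249.8, and 0.15 ± 0.24 (chr5:72320016-72320773). Pairs that share 1 promoter were common in both subunits and in the complexes: MRPS11 with MRPL46, MRPS27 with PTCD2, NDUFA7 with RPS28, NDUFA2 with IK, ATP5F1A with HAUS1 and ATP5MD with PDCD11 start on opposite strands within a single peak.

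Where a labelled peak sits bears on what it measures. Of the 112 members, 90 overlapped the gene they are labelled with and 97 lay within 1000 bp of it. Of the 92 whose gene has a start in the RefSeq table, 71 held that start (77.2%), against 68.2% of all symbol-bearing peaks. Another gene's start on the opposite strand lay in 22 of those 71 (31.0%), against 26.0%. Peaks at their own start had a median log2 fold change of 0.07 (71 peaks) and those away from it 0.0048 (21 peaks). Some labels stand at a neighbour: the peak labelled NDUFS6 holds the start of MRPL36 and the peak labelled MRPL36 holds the start of NDUFS6, with 0.31 ± 0.30 and -0.03 ± 0.38. The NDUFA9 label stands 43879 bp from the gene at the start of DYRK4, and the 2 MRPL11 labels stand 27595 and 28277 bp away at PELI3.

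Labels also miss many member genes. RefSeq lists 177 protein-coding genes that satisfy the symbol rule, and 77 of them carry no labelled peak. Of the 68 with a start in the table, 64 had a peak there under another label or none, and 0 of these genes' start peaks was called. With start peaks of any label, 145 peaks in all, 0 were called, 3 had an unadjusted p under 0.05, the median log2 fold change was 0.07 and the 95% interval lay inside ±1 for 135 (93.1%). The NADH-oxidising and electron-carrying core of complex I is found there: NDUFV1 (-0.16 ± 0.23), NDUFV2 (0.21 ± 0.24), NDUFS1 (0.58 ± 0.29, adjusted p = 0.2809 by DESeq2), NDUFS3 (-0.09 ± 0.22) and NDUFS8 (0.34 ± 0.20).

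Inside the gene bodies, away from the starts, some peaks passed the test. Of 62 peaks of other or no label elsewhere in the bodies of 39 member genes (off both ends where the start is not in the RefSeq table, as for MRPS28, MRPL23 and MRPL13), 6 were called (9.68%; 3 positive, 3 negative), against 6.0% of all peaks and 0 of 74 peaks of other label at a start. That share was not tested against the 6.0%, and 6 peaks are few. Start peaks are seldom called anywhere, at 0.661% of symbol-bearing peaks holding a RefSeq start, which bears on the 0 of 74. The 6.0% covers all peaks, including symbol-bearing ones, of which 2.11% were called. For these reasons the 6 calls in gene bodies are not read as particular to these genes. The 62 are smaller sites, with a median of 49.3 counts and 371.5 bp, and 54 of them carry no symbol. MRPS28, a small subunit gene, held 2 negative ones, -1.54 ± 0.27 (chr8:79963442-79963965, adjusted p = 4.49e-06 by DESeq2) and -1.09 ± 0.30 (chr8:79932510-79933012, adjusted p = 0.01003 by DESeq2). The peak that carries its label had 0.16 ± 0.23. MRPL23 held a negative one, -1.05 ± 0.24 (chr11:1988238-1989101, adjusted p = 0.0009388 by DESeq2), which is labelled LINC01219 and also overlaps MRPL23-AS1.

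The positive ones lay in SDHA, NDUFAF2 and MRPL13. SDHA held one 45182 bp from its nearest start, at 1.63 ± 0.44 on 37.9 counts (chr5:263337-263668, adjusted p = 0.006851 by DESeq2). SDHA closely resembles the pseudogenes named above, so the unknown handling of reads that map to several places may bear on this called peak too. NDUFAF2, a complex I assembly factor, held one 106227 bp from its start, at 2.23 ± 0.65 on 17.6 counts (chr5:61051316-61051548, adjusted p = 0.01629 by DESeq2), and MRPL13 one at 1.10 ± 0.36 (chr8:120397446-120398087, adjusted p = 0.0428 by DESeq2). The genes' start peaks gave values near 0 for SDHA (above) and for NDUFAF2, 0.11 ± 0.21. The peak that carries the MRPL13 label and overlaps that gene had 0.46 ± 0.32 (adjusted p = 0.5503 by DESeq2), of the same sign. Whether any of these sites acts on the gene that surrounds it was not measured.

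**Figure D4:**
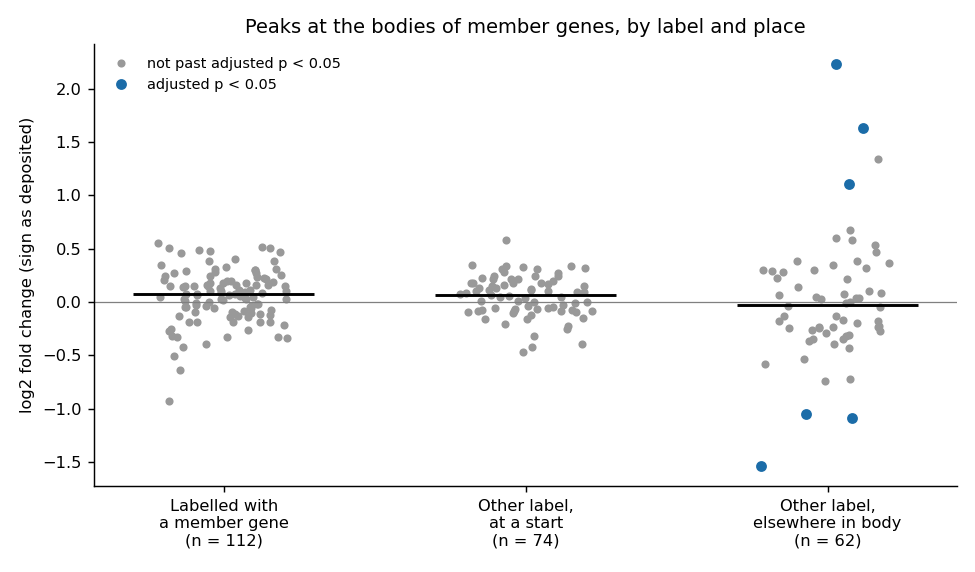
Log2 fold change, sign as deposited (vertical), of the member peaks and of peaks with other or no label at the bodies of member genes, by place (horizontal); horizontal bars are medians and filled blue points passed an adjusted p of 0.05. Called peaks are absent among the 112 labelled peaks and the 74 at starts and number 6 among the 62 elsewhere in the bodies.

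Promoter letters are given here as shares, with no test. The 300 bases from 250 before to 50 after the start were read for 152 member genes, of which 138 (90.8%) had the start in a peak, against 59.1% of 15690 other protein-coding genes. Among genes with the start in a peak, the ETS motif stood in 36.2% of 138 member windows and 20.6% of 9280 others. The YY1 motif stood in 14.5% of member windows and 4.11% of others, and the NRF1 motif in 9.42% and 4.12%. At least 1 of these motifs was present in 51.4% of member windows and 26.6% of others. ETS and YY1 matches, which share the letters AAG, overlapped in 0 member windows and 3 others. The SP/KLF motif was less common in members, 29.7% against 40.8%, and so was the CCAAT box, 31.2% against 38.9%. The CRE was about as common, 3.62% against 3.71%. Member windows were also lower in GC, a median of 61.2% against 66.0%, which bears on any motif of fixed letters.

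**Figure D5:**
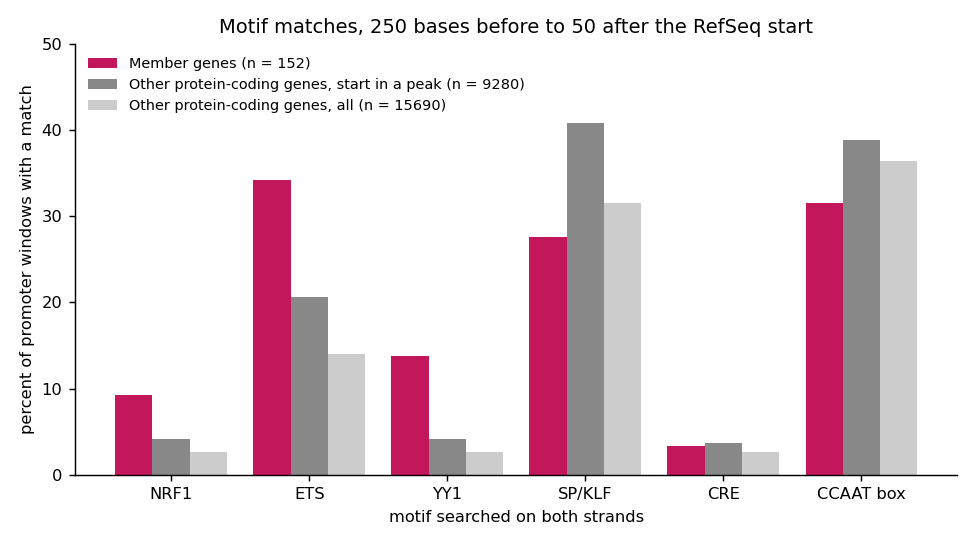
Percent of promoter windows with a match (vertical) for each motif searched on both strands (horizontal), for all 152 member windows and for the other protein-coding genes. The member bars are higher for ETS, YY1 and NRF1 and lower for SP/KLF and the CCAAT box.

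Among the groups, the ETS motif stood in 12 of 27 small subunit windows (44.4%) and 17 of 42 large subunit windows (40.5%), and in 4 of 7 windows of complex II (57.1%), 3 of 7 of complex III (42.9%), 5 of 16 of complex IV (31.2%) and 5 of 14 of complex V (35.7%). Complex I was lowest, at 6 of 39 windows (15.4%). YY1 stood in 8 large subunit windows (19.0%) and 5 small subunit windows (18.5%), and in 0 of 16 complex IV windows. NRF1 was most frequent in complex V, at 4 of 14 windows (28.6%), and stood in 5 complex I windows (12.8%), against 2 large and 1 small subunit windows. The median log2 fold change of start peaks was 0.06 with an ETS match (26 peaks) and 0.07 without (45), and 0.06 with a YY1 match (9) and 0.07 without (62). It was 0.28 with an NRF1 match (5 peaks, none called) and 0.07 without (66).

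Genes that build and feed the same organelle gave no call either. In 7 lists of mitochondrial genes outside the symbol rule, 128 peaks in all, 0 passed an adjusted p of 0.05. The share called was 0.661% of symbol-bearing peaks holding a RefSeq start and 2.11% of all symbol-bearing peaks. A count of 0 is near the first share and is not particular to these lists. The lists cover assembly factors and other subunits (33 peaks, median log2 fold change 0.03), ribosome proteins and assembly factors under other symbols (12, -0.10), mitochondrial DNA maintenance and transcription (12, 0.03), nuclear regulators (9, 0.06), translation factors and tRNA synthetases (22, 0.07), protein import (24, 0.09), and pyruvate dehydrogenase with the tricarboxylic acid cycle (16, 0.02). The 95% intervals of the regulators' peaks all held 0. NRF1 had 0.20 ± 0.25 (95% interval -0.295 to 0.685) at a peak that holds no RefSeq start, and YY1 had 0.06 ± 0.21. The ESRRA peaks, for an orphan receptor of oxidative metabolism, had -0.21 ± 0.19 and 0.06 ± 0.26, the latter also without a RefSeq start. TFAM, which packages mitochondrial DNA, had 0.06 ± 0.21.

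The list peaks farthest from 0 by their p were MTFMT, TEFM, TOMM40 and GRPEL1. MTFMT, which formylates the initiator methionyl tRNA, had -0.67 ± 0.25 at a peak that holds no RefSeq start (adjusted p = 0.09825 by DESeq2). TEFM, the elongation factor of mitochondrial RNA polymerase, had 0.61 ± 0.26 (adjusted p = 0.1631 by DESeq2). TOMM40, the outer membrane import pore, had -0.34 ± 0.15 on 1294.8 counts (adjusted p = 0.2069 by DESeq2). GRPEL1, the nucleotide exchange factor of the matrix HSP70, had -0.82 ± 0.37 on 56.7 counts (adjusted p = 0.2072 by DESeq2). Its other peak had 0.08 ± 0.20 on 275.4 counts, and neither GRPEL1 peak holds a RefSeq start. The genes of this paragraph were named after their values were seen.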

How the data were processed

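ATAC-seq was done on 4 libraries, 2 high and 2 low, grouped by their titles; the labels name total RNA as the molecule, at odds with the assay. Per the submitters' processing notes, the tools were BWA, MACS2 and DESeq2, with GRCh38 and hg38 as builds and no versions or settings. Not given in the sources used here are the handling of Tn5 shifts and duplicates, which could change a peak's count, and any pooling of libraries for peak calling. The authors' deposited table holds 1 mean normalized count per peak (a signal averaged over libraries), the log2 fold change with its standard error, a Wald score, a p-value and its adjusted form, per the file headers. The authors' score equalled the change divided by its standard error within 1.72e-07, and the deposited adjusted p-value equalled the Benjamini-Hochberg value over all peaks within 3.4e-06. Coordinates are as deposited, with no statement on whether they count from 0.

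Peaks were selected by symbol and compared with all peaks, symbol-bearing peaks and those holding a RefSeq start (GRCh38.p14), with Python 3.11.15, numpy 2.4.6, pandas 2.3.3 and scipy 1.17.1. A peak was called at an adjusted p under 0.05; 95% intervals used the authors' standard errors. The steps were tested on simulated data. The members and lists were chosen with earlier results of these data known. Genes were named for having, in their group, the smallest p on each side of 0 or the highest mean count. Also named were SDHA to SDHD, tissue-restricted isoforms and their counterparts, and the genes with the 3 largest absolute changes. Other genes given with values, among them NDUFB9, UQCRFS1, UQCR11, SDHAP1 and SDHAP3, were named outside this rule, with their values at hand. Alternatives were other thresholds, the authors' marking, a count filter, recentring, and narrower sets of members. RefSeq windows were matched by symbol, and motifs were searched as exact letters in the first listed window of each gene. Sequence on chromosome 8 was not used here. Fits per library were not analysed here. One called peak at a member gene is not reported here.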

Additional observations from a re-analysis of the deposited data

How the results depend on the processing

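The count of called members was 0 at an adjusted p under 0.1 and by the authors' own Up or Down marking. It was also 0 with the adjustment run again over peaks at or above the median count, or over symbol-bearing peaks. Of the 145 start peaks of any label, an alternative chosen after seeing the data, 0 were called. An adjusted p under 0.01, members within 1000 bp of the gene, 1 peak per gene, and members without assembly factors and pseudogenes also gave 0. Those settings could give nothing else once the main count was 0, so they add no evidence. The count of members whose 95% interval lay inside the bound was 97 at ±1 and 8 at ±0.5. The other mitochondrial lists gave 1 call at an adjusted p under 0.1 (MTFMT) in place of 0. The median of all members ranged from 0.03 to 0.09 over the alternatives, that of complex I from 0.04 to 0.11, complex II from 0.11 to 0.34, complex III from 0.03 to 0.08, complex IV from 0.02 to 0.13, complex V from -0.03 to -0.0012, the large subunit from -0.01 to 0.06 and the small subunit from 0.06 to 0.12. The widest, complex II, moved when assembly factors and pseudogenes were dropped, which leaves 2 peaks. Counting NDUFA4 and NDUFA4L2 with complex I, also chosen after seeing the data, left the medians of complexes I and IV positive. Of the alternatives for single genes, 77 were counted as unchanged. The exception was 1 COX6B1 peak (start 35643351), whose log2 fold change turned to -0.0113 on recentring, against 0.05 as deposited. Only recentring could alter a direction, since the adjustments run again kept the deposited change. Those adjustments could call only a peak with an unadjusted p under 0.05. Many of the 77 outcomes were therefore fixed beforehand and add no evidence. No paired analysis was possible because the table gives 1 value per peak for all libraries, and for the same reason leaving out a replicate, a replicate block and TMM scaling were not run. At the authors' standard errors, which hold both counting depth and scatter between libraries, a call needed a 1.72-fold change at the median member.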
